A study of Mus musculus with 6 samples.

Results

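The cytosolic ribosomal protein genes were described in C2C12 cells, a mouse myoblast line that stops dividing and fuses into myotubes when serum is lowered. Members were the rows of the gene count table whose symbol is a plain ribosomal protein symbol (Rpl or Rps with its number, Rpsa, or Rplp0 to Rplp2), without the rows named as pseudogenes. The rule found 88 rows of 56792, of which 52 belong to the large and 36 to the small subunit. RNA sequencing compared wild-type C2C12 cells in differentiation medium with 2% horse serum, after 4 days, in 2 groups: 3 libraries with 1 µM lenvatinib and 3 without it. Lenvatinib is an anticancer drug that inhibits several receptor tyrosine kinases, among them the receptors of vascular endothelial and fibroblast growth factors. The labels name neither a solvent for the untreated cells nor the time at which the drug was added, and the line is a single immortal one. Nothing says that the libraries came from separate cultures, so p-values reflect only the variation among these 6 libraries, part or all of which may be technical.

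Ribosomal proteins and ribosomal RNA together form the small subunit, which reads the mRNA, and the large subunit, which joins amino acids. Most ribosomal protein mRNAs start with a run of pyrimidines, the 5′ terminal oligopyrimidine (TOP) motif, through which the mTORC1 kinase controls their translation. The genes are highly expressed and have left many processed copies (pseudogenes) in mammalian genomes, so a short read from one gene can also match a copy. In muscle cells ribosome content is known to change with growth and differentiation.

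Each library held 24566768 to 32406563 counts, and 3 counts corresponded to 0.0926 to 0.122 CPM (counts relative to the library's total). Such floors cover counting error only. All 9 myotube markers examined, among them Myog, Myh3 and Ckm, were measured in every library. With lenvatinib 5 of them were higher (Myog, Myod1, Mymk, Ckm and Myh3) and 4 lower (Mef2c, Des, Tnnt1 and Actn2). These calls use the test described below, at adjusted p under 0.05. By it 13.3% of all tested rows were higher and 14.9% lower. The part of the markers in the results below was not tested. Markers of other cells were near 0: the summed counts per library were 21 to 38 with lenvatinib and 19 to 29 without it for 5 endothelial genes, 45 to 75 with lenvatinib and 37 to 54 without it for 5 macrophage genes, and 0 to 2 with lenvatinib and 0 to 3 without it for 5 adipocyte genes. Adgre1 and Plin1 were at 0 in all 6 libraries.

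The annotated starts of member genes were searched for 2 short motifs, which some members carry and which the symbol rule did not use. Stretches are shown for the motif CTTTCC only. The 70 bases below run from 40 bases before to 30 bases after the RefSeq start (GRCm38.p6), with the pyrimidine letters CTTTCC in capitals where they occur on the sense strand. The first 4 genes were lower with lenvatinib.
Rpl10a, chr17:28328525-28328594, plus strand: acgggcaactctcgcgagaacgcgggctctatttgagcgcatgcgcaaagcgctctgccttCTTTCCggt
Rpl28, chr7:4792925-4792994, plus strand: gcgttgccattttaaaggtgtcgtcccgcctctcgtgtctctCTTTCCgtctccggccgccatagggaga
Rpl18, chr7:45718031-45718100, plus strand: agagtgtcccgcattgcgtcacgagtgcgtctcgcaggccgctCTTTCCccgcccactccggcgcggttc
Rpl4, chr9:64173347-64173416, plus strand: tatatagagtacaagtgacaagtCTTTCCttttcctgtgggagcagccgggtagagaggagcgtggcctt
The next 3 genes carry the same letters and did not pass the test.
Rpl15, chr14:18270957-18271026, minus strand: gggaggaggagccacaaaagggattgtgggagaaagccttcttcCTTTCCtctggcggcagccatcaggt
Rps27, chr3:90213619-90213688, minus strand: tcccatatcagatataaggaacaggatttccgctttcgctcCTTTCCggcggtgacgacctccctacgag
Rpl35a, chr16:33056442-33056511, plus strand: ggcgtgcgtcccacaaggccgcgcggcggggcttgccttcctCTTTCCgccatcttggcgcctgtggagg
The last 2 are paralogs whose transcripts moved in opposite directions. Neither window holds these letters on the sense strand.
Rpl7l1, chr17:46782627-46782696, minus strand: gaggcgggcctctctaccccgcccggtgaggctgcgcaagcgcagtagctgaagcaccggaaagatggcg
Rpl22l1, chr3:28805468-28805537, plus strand: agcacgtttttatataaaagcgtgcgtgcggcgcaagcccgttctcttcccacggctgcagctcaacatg

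A RefSeq entry was found for 63 of the 88 member rows. CTTTCC lay on the sense strand of this window in 13 of 63 member genes (20.6%), against 3.91% of 27025 genes with an entry. On the antisense strand the shares were 3.17% of members and 3.6% of all genes. The letters CCGGAAGT, the core bound by ETS-type factors such as GABP, lay on either strand between 250 bases before and 50 after the start in 19.0% of members and 4.31% of all genes. Within the members, CTTTCC was found in 6 of 27 that were lower with lenvatinib and in 5 of 31 that did not pass the test. These matches are letters in a window of an annotated start, and no start site was measured here.

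With lenvatinib many ribosomal protein transcripts were lower by a small amount. Of the 83 member rows with enough counts to test, 38 were lower, 2 were higher and 43 did not pass. The other 5 rows (Rpl3l, Rpl10l, Rpl39l, Rps4l and Rps10) had too few counts and are given as counts. These calls use edgeR's quasi-likelihood test on all 14989 tested rows, with Benjamini-Hochberg adjusted p under 0.05. Over all tested rows 14.9% were lower and 13.3% higher (28.2% in either direction). The members' median log2 fold change was -0.073, a change of -4.96%, against a median of 0.0027 over all tested rows, and 71 of 83 members lay below 0. Calls were more frequent among highly expressed rows. Of the 73 members with at least 100 CPM 35 were lower, while of 2263 other rows at that level 22.6% were lower and 22.3% higher, with a median of -0.0019. Among the 180 of those rows that are also no longer than the median member, 20.6% were lower.

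The decreases were small. The 38 lower members had log2 fold changes between -0.21 and -0.073, or changes of -13.5% to -4.96%, with a median of -7.52%. In 36 of them every lenvatinib library lay below every untreated one, and the exceptions were Rpl23a and Rps13, named after their values were seen. Counting all tested members, 49 had every lenvatinib library below, 2 had every one above and 32 overlapped. Over all tested rows the shares were 20.5% below and 19.6% above. Such separation was more frequent among highly expressed rows. Of 2263 other rows with at least 100 CPM, 637 (28.1%) had every lenvatinib library below and 635 every one above. Of the 73 members at that level, 46 (63%) had every one below and 1 every one above. Of the 43 members that did not pass, 33 had a log2 fold change below 0. Leaving out each library in turn gave 31 to 37 lower members, and the other scalings, filters, tools and thresholds gave 29 to 39.

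**Figure D1:**
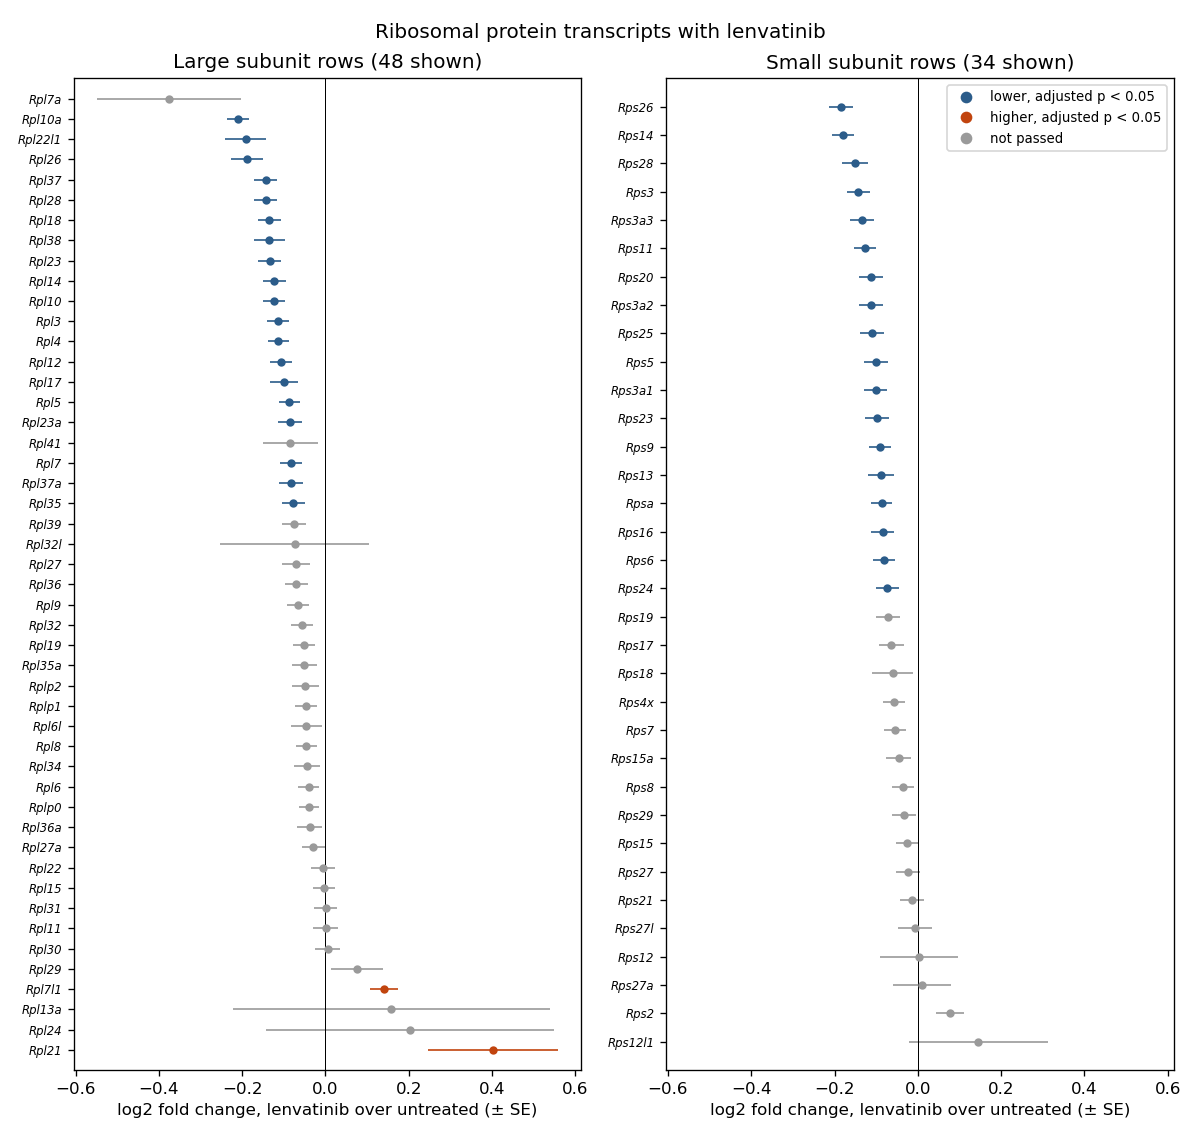
Log2 fold change of 82 of the 83 tested members, lenvatinib over untreated, with its SE, for the large (left) and small (right) subunit; colours give the call at adjusted p under 0.05. Most points of both subunits sit slightly below 0, and the widest error bars belong to Rpl13a and Rpl24, which have few counts.

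The summed level of each subunit was lower with lenvatinib, by a similar share. Among large subunit rows 20 of 49 were lower, 2 higher and 27 did not pass, with a median log2 fold change of -0.071. Among small subunit rows 18 of 34 were lower, none higher and 16 did not pass, with a median of -0.077. The difference between the medians was not tested. The summed large subunit level was 15159, 15116 and 15024 CPM with lenvatinib, against 15999, 16040 and 15870 CPM without it. The summed small subunit level was 10084, 9920 and 9966 CPM with lenvatinib, against 10526, 10582 and 10505 CPM without it. In both sums the groups did not overlap. The large subunit averaged 15100 ± 69.3 CPM with lenvatinib and 15969 ± 88.9 CPM without it, a change of -5.44% (SD, n = 3 each). The small subunit averaged 9990 ± 84.9 CPM with lenvatinib and 10538 ± 39.6 CPM without it, a change of -5.2%. The large subunit sum includes the row of Rpl7a, with a mean of 266 CPM with lenvatinib and 346 CPM without it. Together with its copies Rpl7a had a log2 fold change of 0.0075. The rows named as pseudogenes, left out of both sums, took 0.747% of counts with lenvatinib and 0.758% without it, a change of -1.49%.

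The ratio of large to small subunit counts was 1.503, 1.524 and 1.507 with lenvatinib, against 1.520, 1.516 and 1.511 without it. The lenvatinib libraries held both the highest and the lowest ratio, so the groups overlapped, and the mean was 1.512 ± 0.0109 with lenvatinib and 1.515 ± 0.0046 without it. All member rows together took 2.54, 2.49 and 2.50% of counts with lenvatinib and 2.65, 2.66 and 2.63% without it. In bulk RNA, less ribosomal protein mRNA per cell and fewer cells rich in it cannot be told apart.

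**Figure D2:**
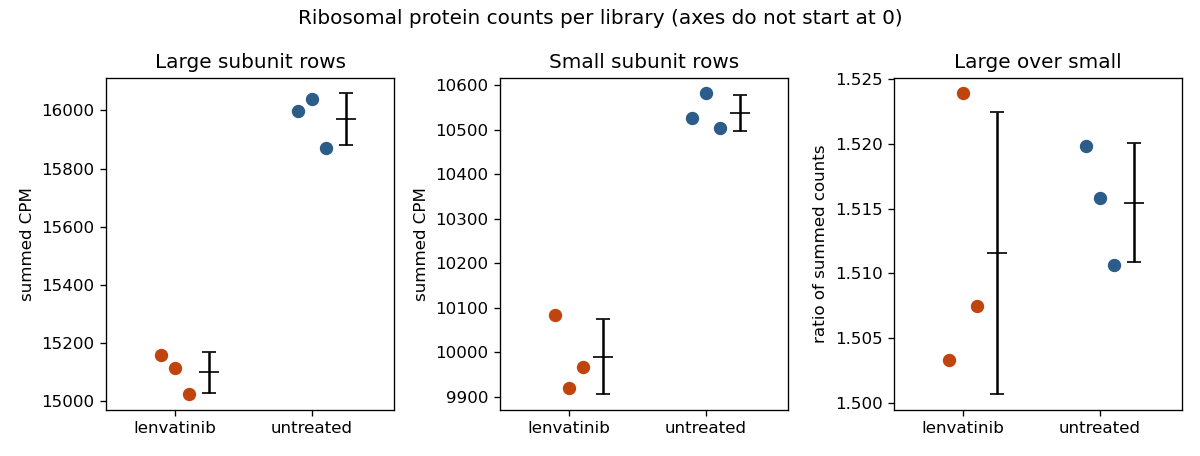
Summed CPM of large and small subunit rows and their count ratio in each library, lenvatinib left and untreated right, with mean and SD (n = 3) as a black bar; axes do not start at 0. Both sums are lower in all 3 lenvatinib libraries, from 15024 to 15159 against 15870 to 16040 CPM for the large subunit, and the ratios overlap.

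In the large subunit the lower transcript with the smallest p was Rpl10a, whose protein forms the mobile L1 stalk beside the exit site for tRNA. It stood at 327, 323 and 321 CPM with lenvatinib, against 370.5, 376 and 376 CPM without it. The groups were well apart, and the log2 fold change was -0.21 ± 0.027 (SE, adjusted p = 2.99e-08). The window above shows its CTTTCC shortly after the annotated start.

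Several other large subunit members that bind ribosomal RNA were lower. Rpl28 had 328, 332 and 335 CPM with lenvatinib, against 376, 369 and 354 CPM without it, a log2 fold change of -0.14 ± 0.028 (adjusted p = 7.47e-05). Rpl37, a zinc-binding protein, was lower by a log2 fold change of -0.14 ± 0.028 (adjusted p = 6.59e-05). Rpl18 had 262, 264 and 260 CPM with lenvatinib, against 283, 296 and 284 CPM without it, a log2 fold change of -0.14 ± 0.028 (adjusted p = 0.000169). In these genes too no lenvatinib library reached an untreated one.

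Rpl26 lies near the exit of the peptide tunnel, and its human protein also binds the p53 mRNA. Its levels were 74.0, 70.3 and 74.95 CPM with lenvatinib, against 79.3, 86.1 and 84.6 CPM without it. The log2 fold change was -0.19 ± 0.039 (adjusted p = 0.00017), with groups that did not overlap.

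Rpl3 and Rpl10 lie close to the peptidyl transferase centre, and Rpl10 joins the large subunit in the last steps of its assembly. Rpl10 had 484, 497 and 491 CPM with lenvatinib, against 531, 543 and 528 CPM without it, and its log2 fold change was -0.12 ± 0.026 (adjusted p = 0.00032). Rpl3 changed alike, with a log2 fold change of -0.11 ± 0.027 (adjusted p = 0.000998). Rpl10l, a retrogene copy of Rpl10 expressed in the testis, had 0 counts in all 6 libraries. Rpl3l, the paralog of Rpl3 known from heart and skeletal muscle, had 2, 0 and 4 counts with lenvatinib and 1, 1 and 7 counts without it, too few to test.

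Rpl5 and Rpl11 bind 5S ribosomal RNA together and, when free, bind Mdm2, the ligase that degrades p53. Rpl5 had 550.3, 550.1 and 550.6 CPM with lenvatinib, against 586, 581 and 585 CPM without it, and its log2 fold change was -0.087 ± 0.026 (adjusted p = 0.00867). Rpl11 had 393, 407 and 426 CPM with lenvatinib, against 421, 396 and 408 CPM without it. Its groups overlapped, and its log2 fold change was 0.00066 ± 0.03 (adjusted p = 0.991). The difference between the 2 genes was not tested.

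The stalk proteins, which recruit translation factors to the large subunit, did not pass the test. Rplp0 had 947, 956 and 932 CPM with lenvatinib, against 964, 985 and 964 CPM without it, and Rplp0 and Rplp1 lay below in every lenvatinib library. The log2 fold changes of Rplp0, Rplp1 and Rplp2 were -0.039 ± 0.025, -0.046 ± 0.026 and -0.049 ± 0.033, with adjusted p of 0.258, 0.206 and 0.3. Rplp0 is often used as a reference gene in quantitative PCR.

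In the small subunit Rps14 and Rps26, neighbours on the platform where mRNA leaves, had the smallest p. Rps14, the gene lost in the human 5q- syndrome, had 371, 367 and 363 CPM with lenvatinib, against 421, 415 and 411 CPM without it, a log2 fold change of -0.18 ± 0.027 (adjusted p = 7.98e-07). Rps26 had 219, 224 and 222 CPM with lenvatinib, against 246, 258 and 251 CPM without it, a log2 fold change of -0.18 ± 0.028 (adjusted p = 1.71e-06). In both genes the lowest untreated library exceeded the highest lenvatinib one.

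Rps3, at the mRNA entry site, and Rps28, close to Rps26 on the platform, were lower as well. Rps3 had 341, 337 and 330.3 CPM with lenvatinib, against 371, 376 and 365 CPM without it, and its log2 fold change was -0.14 ± 0.027 (adjusted p = 5.05e-05). Rps28 had a log2 fold change of -0.15 ± 0.031 (adjusted p = 0.000154).

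Rpsa, also known as the laminin receptor precursor, had 604, 603 and 596 CPM with lenvatinib, against 634, 642 and 639 CPM without it. Its groups did not overlap, and the log2 fold change was -0.087 ± 0.026 (adjusted p = 0.00799). Rps6 is the ribosomal substrate of the S6 kinases downstream of mTORC1. It had 504, 508 and 492 CPM with lenvatinib, against 532, 534 and 523 CPM without it, a log2 fold change of -0.08 ± 0.026 (adjusted p = 0.0186). Its call was lost without either untreated replicate 1 (adjusted p = 0.0577), untreated replicate 2 (0.0516) or lenvatinib replicate 3 (0.108).

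**Figure D3:**
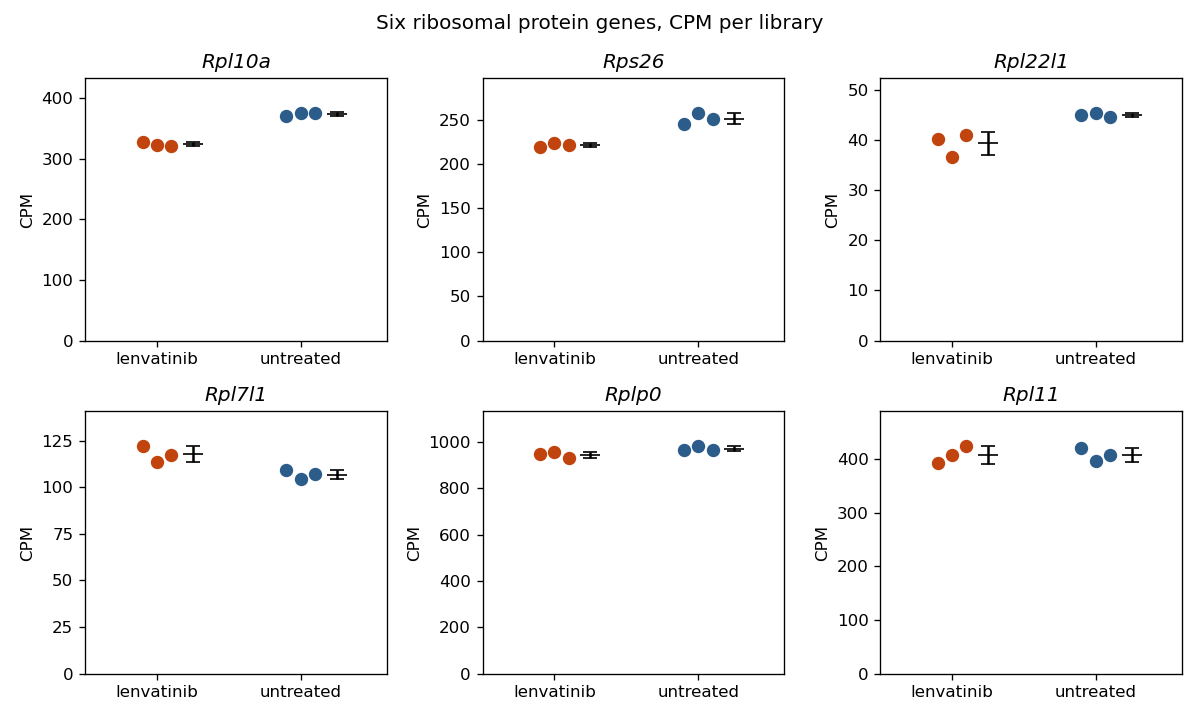
CPM of 6 member genes in each library, lenvatinib left and untreated right, with mean and SD (n = 3) as a black bar. Rpl10a, Rps26 and Rpl22l1 are lower with lenvatinib, Rpl7l1 is higher, and Rplp0 and Rpl11 did not pass the test.

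Among paralogs, which can replace or accompany the main protein, Rpl7l1 was higher with lenvatinib. Its human protein is known from the nucleolus, where it takes part in assembly of the large subunit. It had 122, 114 and 117 CPM with lenvatinib, against 109, 104 and 107 CPM without it. Every lenvatinib library lay above every untreated one, and the log2 fold change was 0.14 ± 0.034 (adjusted p = 0.00126). Rpl7 itself had a log2 fold change of -0.083 ± 0.027 (adjusted p = 0.0162), which was lost without untreated replicate 2 (adjusted p = 0.106) or lenvatinib replicate 3 (0.074).

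Rpl22 and Rpl22l1 form a pair in which, in mice, the Rpl22 protein represses the paralog's transcript. Rpl22l1 had 40.2, 36.7 and 40.9 CPM with lenvatinib, against 44.9, 45.4 and 44.5 CPM without it, a log2 fold change of -0.19 ± 0.049 (adjusted p = 0.00208). Its lenvatinib libraries were all lower, with replicate 2 the lowest. Rpl22 had 216, 219 and 214 CPM with lenvatinib, against 222, 211 and 219 CPM without it, and overlapped between groups (adjusted p = 0.91). In the remaining pairs neither gene passed. Rps27 and Rps27l, of which Rps27l is a p53 target in human cells, had log2 fold changes of -0.024 ± 0.028 and -0.007 ± 0.04 (adjusted p = 0.583 and 0.926). Rpl39 missed the threshold at a log2 fold change of -0.076 (adjusted p = 0.0505). It passed with RLE scaling (0.0488), with TMM factors from the other rows (0.0495), with a filter of 1 CPM (0.0465) and without untreated replicate 2 (0.0471). Rpl39l, its testis-enriched paralog, had 0 counts. Rps4x (-0.058, adjusted p = 0.104) and Rpl36a (-0.038, adjusted p = 0.393) did not pass, and Rps4l had 0 counts.

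Per base of row length, row levels spanned a wide range. The lengths are deposited values, such as 499 bases for Rplp1, 383 for Rpl36 and 6256 for Rps24. In 9 member rows, among them Rps13 and Rpl22l1, the length equals the span of the whole gene. The order therefore depends on these lengths as well as on counts, and it is not an order of mRNA levels. Rplp1 was the highest at 1113 CPM per 1000 bases, followed by Rps15 at 598 and Rpl36 at 594 CPM per 1000 bases. The log2 fold changes of Rps15 and Rpl36 were -0.026 (adjusted p = 0.527) and -0.07 (adjusted p = 0.0599). The lowest tested rows were Rpl13a at 0.236, Rpl24 at 0.721 and Rpl21 at 0.978 CPM per 1000 bases. Rpl13a had 10, 14 and 19 counts with lenvatinib, against 15, 14 and 9 counts without it. Rpl24 had 15, 16 and 35 counts with lenvatinib, against 13, 29 and 14 counts without it. Both rows overlapped between groups, and their proteins are core parts of the large subunit.

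Some member rows held a small part of the reads of their family. When each member was set beside the rows of its named copies (320 rows, mostly pseudogenes with the suffix -ps), copies held over 50% of the summed CPM in 10 of 65 families. Rps10 itself had 4, 0 and 5 counts with lenvatinib and 6, 3 and 8 counts without it, while its copies had 105, 99.4 and 109 CPM with lenvatinib, against 104, 108 and 104 CPM without it. That is 99.9% of the family in copies, mostly in Rps10-ps2. Copies held 98.8% of the family of Rpl21, 91.7% of Rps2, 85.7% of Rpl17 and 83.5% of Rps18. The sources used here do not state how reads that match several places were counted, so the levels of these rows are uncertain.

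Rpl21 was the second member called higher, and its call belongs to the row with few reads. The row had 3.31, 4.13 and 3.89 CPM with lenvatinib, against 2.86, 3.25 and 2.5 CPM without it, a log2 fold change of 0.4 ± 0.156 (adjusted p = 0.0482). With its copies added, the family had 284, 279.9 and 286 CPM with lenvatinib, against 285, 282 and 291 CPM without it, and the log2 fold change was -0.014 ± 0.027 (adjusted p = 0.753). The call of the row was also lost without untreated replicate 1 (0.0936), untreated replicate 3 (0.212), lenvatinib replicate 2 (0.166) or lenvatinib replicate 3 (0.127).

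In the family of Rpl7a the gene row and its copies varied in opposite directions. The row had 259, 259 and 280.4 CPM with lenvatinib, against 406, 361 and 270.5 CPM without it, and its log2 fold change of -0.38 ± 0.173 was the lowest of any member but did not pass (adjusted p = 0.212). Its copy Rpl7a-ps11 had 307, 308 and 277 CPM with lenvatinib, against 178, 218 and 292 CPM without it. Untreated replicate 3 was close to the lenvatinib libraries in both rows, and without it the row of Rpl7a was lower (log2 fold change -0.53, adjusted p = 0.000975). Gene and copies together had 662, 659 and 657 CPM with lenvatinib, against 657, 649 and 659.6 CPM without it. The sum thus varied by a factor of 1.019 between the lowest and highest library, against 1.568 for the gene row and 1.604 for its copies, and its log2 fold change was 0.0075 ± 0.025 (adjusted p = 0.868).

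Summing each gene with its copies left the picture over all members nearly as it was. Of 79 resulting rows 39 were lower and 1, Rpl7l1, was higher, with a median log2 fold change of -0.073, and 34 rows were lower both before and after. Rps18, with 665, 672 and 656 CPM in the family with lenvatinib, against 714, 713 and 711 CPM without it, passed after summing (log2 fold change -0.1 ± 0.025, adjusted p = 0.00148) and not before (adjusted p = 0.419). Rps27, Rpl34, Rpl30 and Rpl9 also passed after summing alone, while Rps13 and Rps6 passed before it alone. The log2 fold change of Rps13 went from -0.088 to -0.138 with summing, with a larger SE of 0.073 (adjusted p = 0.257). Of the genes that passed after summing alone, Rps18 still passed without each library in turn (adjusted p = 0.00373 to 0.0145). Rps27 was lost without untreated replicate 2 (0.1623) or lenvatinib replicate 2 (0.2019), and Rpl34 without untreated replicate 2 (0.0586) or lenvatinib replicate 2 (0.1105). Rpl9 was lost without untreated replicate 1 (0.0547), 2 (0.1063) or 3 (0.0773), and without lenvatinib replicate 2 (0.115) or 3 (0.1541). Rpl30 was lost without untreated replicate 3 (0.1625), lenvatinib replicate 1 (0.207) or lenvatinib replicate 2 (0.0568). The copies of Rpl30 had 44.1, 81.7 and 91.2 CPM with lenvatinib, against 92.1, 88.1 and 101.9 CPM without it, and lenvatinib replicate 1 was low. The 157 tested rows named -ps had a median log2 fold change of 0.0007, with 12 (7.64%) lower and 2 higher. Over all tested rows 14.9% were lower and 13.3% higher.

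**Figure D4:**
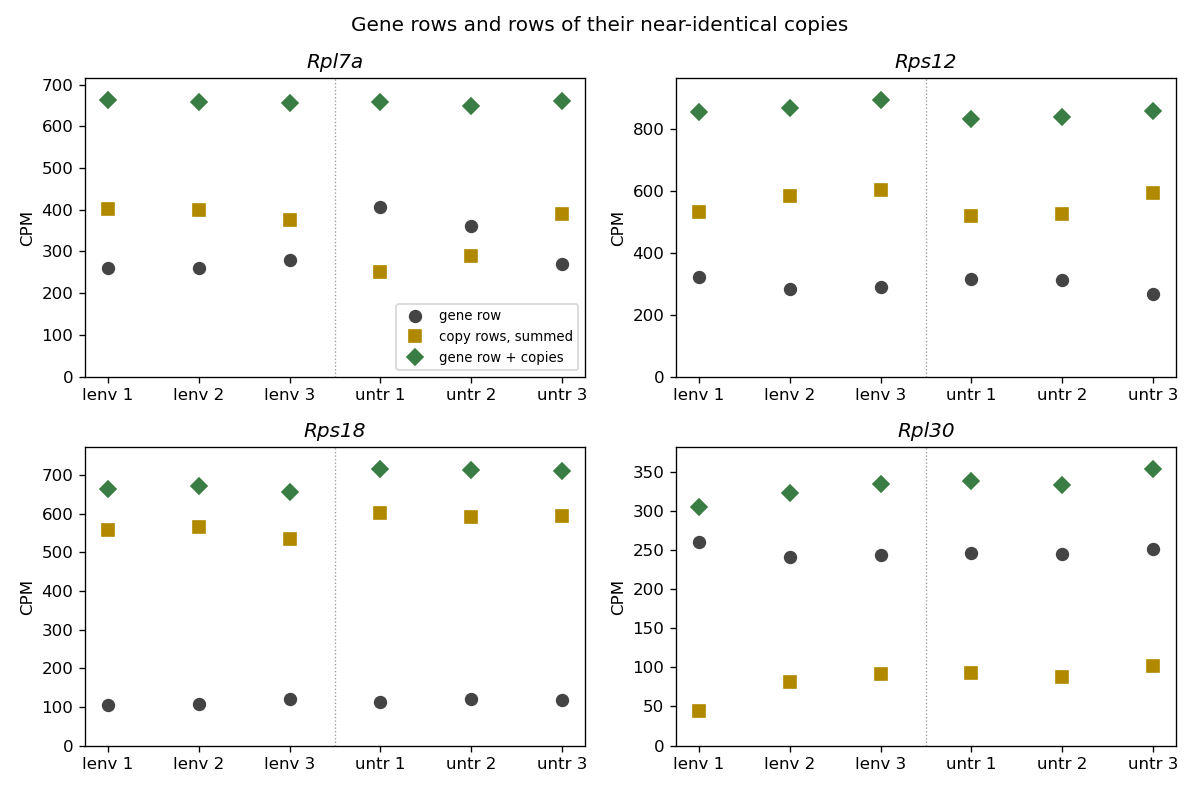
CPM of 4 gene rows (circles), of their summed copy rows (squares) and of both together (diamonds) in each library, lenvatinib left of the dotted line and untreated right of it. For Rpl7a the gene and copy rows mirror each other while their sum stays between 649 and 662 CPM.

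Retrocopy rows that carry a plain symbol fell under the rule as well. Rps12l1 had 92.4, 117 and 118 CPM with lenvatinib, against 87.1, 93.6 and 116 CPM without it. Its groups overlapped, and it had the highest log2 fold change of any member with at least 5 CPM at 0.14 ± 0.166 (adjusted p = 0.612). Rps3a2 and Rps3a3, copies of Rps3a1, were lower by log2 fold changes of -0.11 and -0.13 (adjusted p = 0.00251 and 0.000403), and Rps3a1 itself by -0.1 (adjusted p = 0.00437). These 3 share sequence and are not independent.

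Of 5 tested ribosomal genes outside the symbol rule 2 were lower and none higher, against 14.9% and 13.3% of all tested rows. Fau, which encodes the small subunit protein eS30 fused to a ubiquitin-like part, had 255, 251 and 254 CPM with lenvatinib, against 277, 272 and 279 CPM without it (log2 fold change -0.12 ± 0.027, adjusted p = 0.000425). Rack1, a scaffold on the head of the small subunit, had a log2 fold change of -0.11 ± 0.026 (adjusted p = 0.000781).

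Of 22 translation factors and other genes with TOP-type mRNAs 11 (50%) were lower, 2 higher and 9 did not pass, with a median log2 fold change of -0.1. Over all tested rows 14.9% were lower and 13.3% higher. Most genes of this list lay above 100 CPM, and of rows outside the members at that level 22.6% were lower and 22.3% higher. Eif4b, a cofactor of the helicase that unwinds mRNA, had 453, 449 and 445 CPM with lenvatinib, against 544, 541 and 538 CPM without it (log2 fold change -0.27 ± 0.026, adjusted p = 4.22e-11). Eef1b2, a nucleotide exchange factor of elongation, had 295, 289 and 288 CPM with lenvatinib, against 347, 343 and 342 CPM without it (log2 fold change -0.24 ± 0.027, adjusted p = 1.09e-09). The poly(A) binding protein gene Pabpc1 had a log2 fold change of -0.21 ± 0.027 (adjusted p = 3.21e-08). Vim, which encodes the filament protein vimentin, was higher by 0.2 ± 0.024 on the log2 scale (adjusted p = 4.79e-09).

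In the 4 lists of genes that build ribosomes, medians lay close to that of all tested rows, of which 14.9% were lower and 13.3% higher. Among 19 genes of RNA polymerase I and its factors 1 was lower, Polr1a, its largest subunit (log2 fold change -0.2, adjusted p = 1.76e-05), and 1 higher, Cd3eap (0.19, adjusted p = 0.0171), lost without untreated replicate 3 (0.134), lenvatinib replicate 1 (0.0581) or lenvatinib replicate 3 (0.0568). Of 25 genes of ribosomal RNA processing 2 were lower, Npm1 (-0.11) and Imp3 (-0.21), and 1 higher, Snu13 (0.1), with a median of -0.0096. Npm1 is also counted among the lower genes of the TOP-type list above. Imp3 was lost without untreated replicate 2 (adjusted p = 0.114), lenvatinib replicate 1 (0.0512) or lenvatinib replicate 3 (0.139). Snu13 was lost without untreated replicate 1 (0.0517), untreated replicate 2 (0.101), lenvatinib replicate 1 (0.059) or lenvatinib replicate 2 (0.063). Of 21 small subunit assembly factors 2 were lower, Riok3 (-0.21) and Bms1 (-0.13), and none higher, with a median of 0.0031. Of 42 large subunit assembly factors 6 were lower and 5 higher, with a median of -0.014. Bop1, a pre-ribosome processing factor, had 175, 178 and 178 CPM with lenvatinib, against 157, 160 and 156 CPM without it (log2 fold change 0.17 ± 0.029, adjusted p = 1.37e-05). Sbds, which helps to release a factor that keeps new large subunits from joining, was lower at -0.16 ± 0.038 (adjusted p = 0.000746).

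Of 39 tested regulators of mTORC1 and of TOP mRNAs 7 were higher and 9 (23.1%) lower, with a median log2 fold change of -0.027. Over all tested rows 13.3% were higher and 14.9% lower. Rragd, a small GTPase that couples lysosomal amino acids to mTORC1, had 21.9, 25.3 and 24.7 CPM with lenvatinib, against 14.0, 13.9 and 13.5 CPM without it (log2 fold change 0.8 ± 0.069, adjusted p = 2.2e-12). Sesn2, a leucine sensor that restrains mTORC1, was higher at 0.43 ± 0.051 (adjusted p = 5.86e-09), while its relative Sesn3 was lower at -0.38 ± 0.035 (adjusted p = 1.16e-11). Deptor, an mTOR inhibitor, was lower at -0.22 ± 0.027 (adjusted p = 1.53e-08). Of 7 tested S6 kinase genes only Rps6kb1 passed (14.3% lower), a share close to that of all tested rows. Rps6kb1 is also counted among the 9 lower regulators above. Its log2 fold change was -0.11 ± 0.037 (adjusted p = 0.0269). The call was lost without untreated replicate 3 (0.199), lenvatinib replicate 2 (0.0577) or lenvatinib replicate 3 (0.147).

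MYC drives transcription of ribosomal protein genes. Of 10 tested genes of its network 3 were lower and 1 higher, against 14.9% and 13.3% of all tested rows. Their median log2 fold change was -0.0071, against 0.0027 over all tested rows. Myc had 27.7, 26.8 and 26.7 CPM with lenvatinib, against 34.1, 31.7 and 30.4 CPM without it (log2 fold change -0.24 ± 0.057, adjusted p = 0.000856). Mxd1, a repressor that competes with MYC, was lower at -0.67 ± 0.054 (adjusted p = 2.03e-13), and Mycl was higher at 0.74 ± 0.064 (adjusted p = 1.84e-12). Among 15 p53 targets linked to ribosome stress 3 were lower and 2 higher, shares close to the 14.9% and 13.3% of all tested rows. Cdkn1a, the cell cycle inhibitor p21, had 1667, 1701 and 1699.6 CPM with lenvatinib, against 1896, 1964 and 1945 CPM without it (log2 fold change -0.2 ± 0.024, adjusted p = 8.23e-09). Of 17 genes of ribosome recycling and quality control 3 were lower, Gigyf2 (-0.16), Ascc3 (-0.17) and Map3k20 (-0.11), and none higher. Map3k20 was lost without lenvatinib replicate 1 (adjusted p = 0.0584) or lenvatinib replicate 3 (0.0555).

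**Figure D5:**
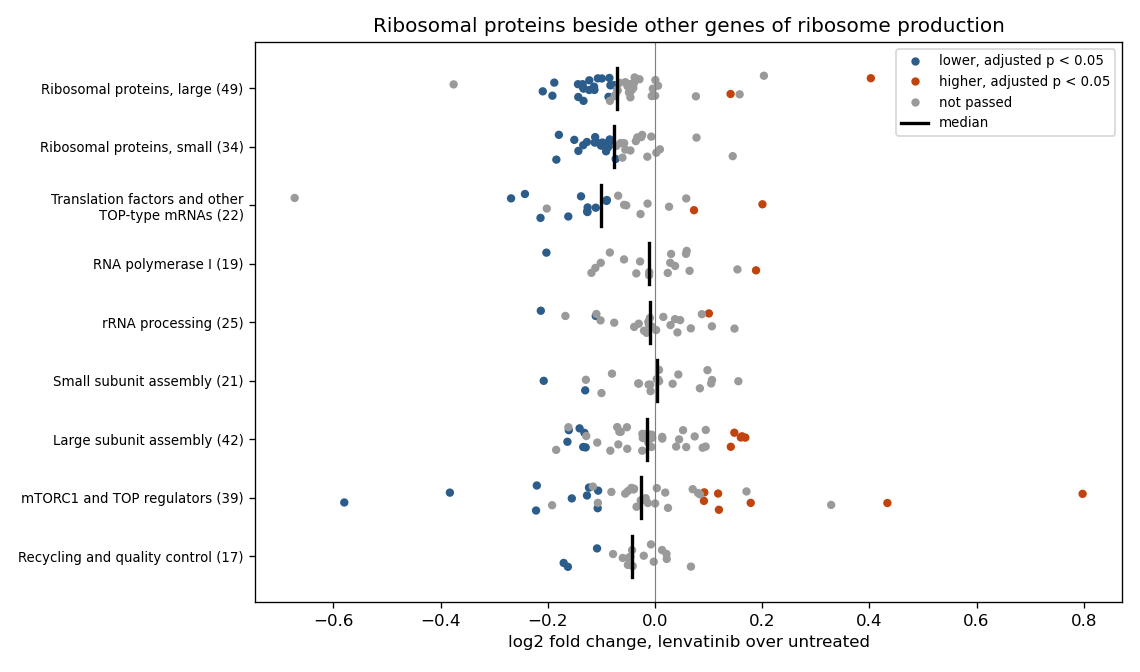
Log2 fold change of each tested gene, lenvatinib over untreated, for the ribosomal proteins of both subunits and 7 lists of related genes, with the number tested in parentheses and the median as a black line. Ribosomal proteins and TOP-type mRNAs have medians of -0.071, -0.077 and -0.1, while the RNA polymerase I, processing and assembly lists have medians between -0.014 and 0.0031.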

How the data were processed

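The table deposited by the authors holds raw counts as whole numbers, with 1 column per library and no scaling. Per the labels' protocols alignment used Hisat2 2.0.1; HTSeq 0.6.1 and mm10 are named in the submitters' processing notes. How multi-matching reads and strand were handled: not given in the sources used here. Deposited positions matched GENCODE M21 in 2.97% of 51863 shared identifiers, so none are printed; windows come from RefSeq. A deposited feature length (unit other) served for levels per length; the row of Rpl9 is longer than its gene.

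CPM (on TMM-scaled totals) and log2 fold changes were computed here with edgeR 4.0.16 in R 4.3.3: filterByExpr (minimum count 10), TMM factors (0.9956 to 1.0074), robust quasi-likelihood test, Benjamini-Hochberg over 14989 rows. The common biological coefficient of variation was 3.6%. The procedure was run on simulated data, whose outcome is not given here. The smallest simulated fold was larger than the change of most lower members. Chi-square per degree of freedom between replicates was 2.78 to 5.6, so no library repeated another. DESeq2 1.42.0, limma-voom (limma 3.58.1), other scalings and filters, a stricter threshold, a replicate block and leaving out each library were alternatives; summing copies, with and without each library, was added after seeing the data.

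Members, lists and alternatives were chosen with earlier results of these data known. Named genes were up to 10 called members per direction by p, the largest folds in members with at least 5 CPM, paralogs, stalk and other fixed members, the 3 highest and 3 lowest levels per length, untested members, and up to 4 called genes per other list. Genes named beyond this rule were chosen after their values were seen. Counts cover all genes; values of some single genes are not reported here.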

Additional observations from a re-analysis of the deposited data

How the results depend on the processing

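The count of lower members was 38 and lay between 29 (adjusted p under 0.01) and 39 over 17 alternatives, and the medians of both subunits stayed negative wherever they were recomputed. The count of higher members was 2 and became 1 with no filter on low counts, with DESeq2, with limma-voom, with adjusted p under 0.01 and with copies summed; leaving out each library gave 1 to 3. Rpl7l1 stayed higher under all 16 alternative fits (log2 fold change 0.115 to 0.167), while Rpl21 passed at 0.05 in 8 of these fits, lost its call in 7 and reversed to -0.0141 with copies summed, where Rpl7a reversed to 0.00753. With upper-quartile scaling Rpl22 and Rps27l, near 0 in every setting, turned to 0.000741 and 6.27e-05. Among the named members, leaving out a library changed the sign of 5 that had not passed. Their ranges were -0.0809 to 0.304 for Rpl13a, -0.141 to 0.708 for Rpl24, -0.0275 to 0.00992 for Rpl22, -0.0188 to 0.0138 for Rps27l and -0.0301 to 0.0294 for Rpl11. Without a filter Rps6 also lost its call (adjusted p = 0.0575). limma-voom called Rpl7a lower (adjusted p = 0.00614). Among the related genes, DESeq2 lost the calls of Rps6kb1, Cd3eap, Imp3 and Snu13, and each of these was also lost without at least 1 library. The causes of these changes were not tested.

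No strong pairing of libraries by the replicate numbers in the labels was seen. Deviations of same-numbered libraries correlated at 0.0406, -0.0329 and 0.0278, and those of differently numbered ones at -0.0601 to 0.0345. A weak pairing was not excluded. With the replicate number as a block 38 members were lower and 2 higher, and over all rows 2182 were lower and 1952 higher, against 2229 and 1999 without it. Rows near 0, such as Rpl3l and Rps10, were not tested, so a difference in them was neither found nor excluded. For Rps10, copies held 99.9% of the family, and why its own row was low was not tested.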
